A study of Mus musculus with 7 samples.

Results

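The developmental transcription factor families considered here are 19 gene families, Hox excluded, whose members bind DNA and set cell identity in embryo and adult. They were taken from the gene symbols by their prefixes (Tbx, Fox, Sox, Pax, Irx, Lhx, Nkx, Gata, Meis, Pbx, Dlx, Msx, Nr2f, Tead, Runx, Ikzf, Ebf and Cebp, and that of the sine oculis homeobox genes such as Six2). The rule found 31 genes among the 9294 measured, from 11 of the 19 families, and no gene of the Pax, Lhx, Meis, Pbx, Msx, Nr2f, Runx and Ebf families entered. The Fox family gave 8 genes, the Tbx and Sox families 4 each, the Nkx, Cebp and sine oculis (Six2, Six4 and Six5) families 3 each, the Tead family 2, and the Irx, Gata, Dlx and Ikzf families 1 each. Tbxa2r shares the Tbx prefix but encodes the thromboxane A2 receptor, a cell surface receptor and not a transcription factor, and was kept because the rule takes it in.

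Expression was measured on Affymetrix arrays in total RNA of wild-type male C57 mice. Paracardial fat, the depot next to the heart, gave 4 samples and intra-abdominal fat gave 3, with no treatment named, and the age of the mice is not given in the sources used here. Samples of a depot are labelled biological replicates, with nothing said about which animal gave which, so each p-value reflects only how much these samples scatter, which may be technical. Values are the deposited log2 values, listed in array order, 1 to 4 for paracardial and 1 to 3 for intra-abdominal fat, and every difference below is paracardial minus intra-abdominal on that scale.

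Transcription factors of these families act in combinations. In fat, C/EBP beta and C/EBP delta act early in adipocyte formation and switch on Pparg, which drives the mature programme. SOX7 and SOX18 work in endothelial cells, FOXN1 is the master regulator of thymic epithelium, T-bet (Tbx21) directs type 1 immune cells, and FOXA proteins open chromatin in tissues of endodermal origin. Whole-tissue RNA mixes these cell types, so fewer cells of a type and less RNA per cell cannot be told apart in any value below.

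The labelled tissue was checked against markers of the cell types it could hold. Adipocyte markers, of which 8 of 11 were measured, averaged 6.22, 6.31, 10.3 and 10.9 in paracardial against 14.9, 15.4 and 16.3 in intra-abdominal fat. Thymocyte markers (6 of 12 measured) averaged 11.4 to 14.3 in paracardial fat and 10.1, 6.94 and 5.89 on intra-abdominal arrays 1 to 3. Thymic epithelial markers (7 of 11) averaged 10.1 to 11.0 in paracardial fat and 7.72, 6.25 and 5.44 on intra-abdominal arrays 1 to 3. Within intra-abdominal fat, array 1 thus carried the most of both thymic marker lists. Endothelial markers (4 of 8) averaged 5.38 to 7.04 in paracardial and 9.15 to 11.6 in intra-abdominal fat. No gene passed among the measured brown adipocyte, progenitor, mesothelial, B cell, macrophage, smooth muscle and cardiomyocyte markers, and brown adipocyte markers (3 of 7) averaged 10.1 on paracardial array 4 against 4.89 to 5.76 on the other arrays. Paracardial arrays 1 and 2 therefore carried little adipocyte signal, and all 4 paracardial arrays carried more of both thymic marker lists than any intra-abdominal array. Paracardial array 4 and intra-abdominal array 3 shared a highest value of 19.93, against 19.81 to 19.84 on the other 5 arrays. Their 5th percentiles over all genes were 4.01 and 3.99, against 4.42 to 4.48 on the others, so their values spread wider at both ends. These 2 array sets, called higher-ceiling (2 arrays) and lower-ceiling (5 arrays), each hold both depots, and their own differences are given beside the results where they part. The higher-ceiling set has 1 array a depot and no test.

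Upstream sequence is shown for the members whose depots did not overlap, to set their promoters side by side. The set of RefSeq start sites used here (GRCm38.p6) covered 22 of the 31 members. Sox18, Sox7, Cebpd, Gata6, Tbx3, Tbx2, Foxs1, Dlx5 and Tead4 had no entry in that set, which may not hold every RefSeq start. Each line gives the 250 bases before the most upstream start, 5′ to 3′ on the strand of the gene, with CpG pairs in capitals.
Sox6, chr7:116038745-116038994, minus strand: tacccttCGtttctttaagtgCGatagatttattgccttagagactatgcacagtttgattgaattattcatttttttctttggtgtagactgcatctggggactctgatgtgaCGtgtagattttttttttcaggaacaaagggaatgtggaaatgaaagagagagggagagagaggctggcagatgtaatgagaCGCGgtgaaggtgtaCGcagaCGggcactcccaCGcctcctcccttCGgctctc
Foxn1, chr11:78386609-78386858, minus strand: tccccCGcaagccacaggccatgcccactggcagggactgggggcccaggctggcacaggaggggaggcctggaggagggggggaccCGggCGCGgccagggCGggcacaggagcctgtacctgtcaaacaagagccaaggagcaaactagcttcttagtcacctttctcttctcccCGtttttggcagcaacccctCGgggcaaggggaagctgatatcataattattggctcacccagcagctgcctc
Foxi1, chr11:34208090-34208339, minus strand: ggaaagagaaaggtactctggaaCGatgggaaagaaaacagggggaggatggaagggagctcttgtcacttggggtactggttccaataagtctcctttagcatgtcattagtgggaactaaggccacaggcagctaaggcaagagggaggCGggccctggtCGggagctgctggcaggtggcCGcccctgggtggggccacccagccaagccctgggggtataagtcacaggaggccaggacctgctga
Tbxa2r, chr10:81328018-81328267, plus strand: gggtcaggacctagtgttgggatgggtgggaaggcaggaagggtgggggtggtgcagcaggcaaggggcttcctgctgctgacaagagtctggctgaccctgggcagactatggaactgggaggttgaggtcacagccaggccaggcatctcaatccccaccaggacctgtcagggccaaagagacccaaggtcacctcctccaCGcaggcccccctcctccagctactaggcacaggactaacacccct
Six2, chr17:85688255-85688504, minus strand: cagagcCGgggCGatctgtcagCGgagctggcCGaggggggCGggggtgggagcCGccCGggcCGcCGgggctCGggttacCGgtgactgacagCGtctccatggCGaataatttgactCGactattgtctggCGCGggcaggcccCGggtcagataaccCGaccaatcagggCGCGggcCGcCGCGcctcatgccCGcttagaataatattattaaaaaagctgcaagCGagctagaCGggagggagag

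The 22 members with an entry held a median of 17 CpG pairs in these 250 bases, against a median of 6 over the 27025 genes of the table, and a G and C content of 63.6% against 52.0%. Six2, a regulator of kidney progenitors, had 26 CpG pairs, in the CpG-rich range of most members. Sox6 had 9, Foxn1 7, Foxi1 4 and Tbxa2r 1, which were among the lowest of the 22, whose range was 1 to 41. Other starts of a gene can differ, with 1 to 10 CpG pairs over the starts of Sox6 and 7 at the other start of Tbxa2r. The GC box (GGGCGG, either strand) was present in 14 of the 22 and in 33.0% of the same 27025 genes, which are not limited to the genes measured. The CCAAT box (CCAAT, either strand) was present in 11 and in 34.5%, and the TATA box (TATAAA, either strand) in 1, Foxa3, and in 13.0%. These matches describe letters in a window and were not set against the expression values.

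By limma, 2 members were lower in paracardial fat, Sox18 and Sox6, none was higher and 29 did not pass at an adjusted p under 0.05. That share of 6.45% stood beside 9.16% of all 9294 genes, and the 2 lower members (6.45%) beside 2.91% of all genes that were lower. The higher members, 0 in number, stood beside 6.25% of all genes. At an unadjusted p under 0.05 there were 7 members (22.6%; 24.4% of all genes), 6 with lower values in paracardial fat (8.31% of all genes) and 1 with higher values (16.1%). The median difference was 0.03 over the members and 0.13 over all genes, with 16 members above 0 and 15 below. Differences ran from -1.81 for Sox18 to 1.29 for Tbxa2r, and 4 members (12.9%) reached a size of 1 where 28.4% of all genes did. The plot of the 31 differences shows this narrow spread around the median of all genes.

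**Figure D1:**
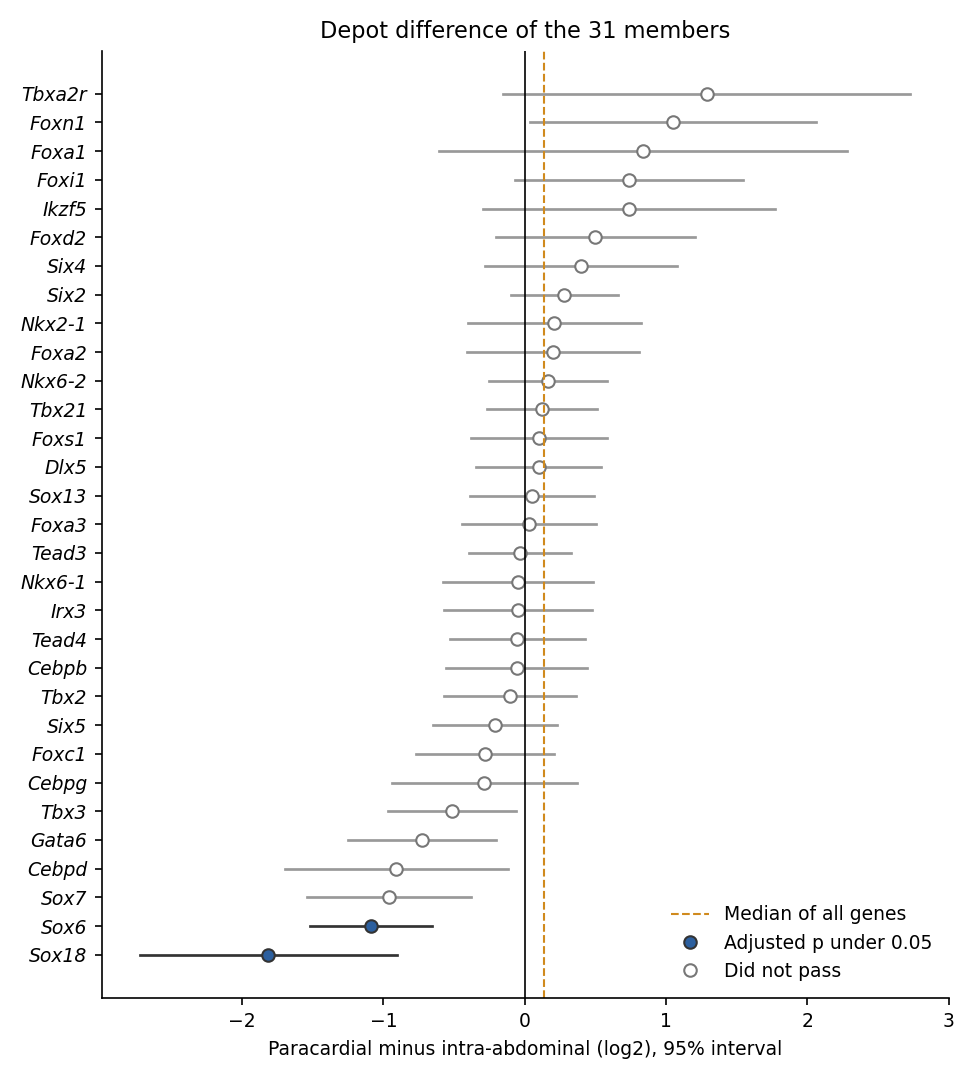
Difference between paracardial and intra-abdominal fat for each of the 31 members (x axis, deposited log2 scale; points are limma estimates from 4 and 3 arrays, bars their 95% intervals), with the median of all genes at 0.13 as a dashed line. Only Sox18 and Sox6, filled, passed an adjusted p under 0.05, and most of the other intervals span 0.

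The depots did not overlap for 10 members (32.3%; 26.7% of all genes). For 6 of them, Sox18, Sox6, Sox7, Cebpd, Gata6 and Tbx3, every paracardial value lay below every intra-abdominal value (19.4%; 8.78% of all genes). For Foxn1, Foxi1, Tbxa2r and Six2 every paracardial value lay above (12.9%; 18.0% of all genes). The plot of each array's value for these 10 genes shows tight paracardial groups for the SOX genes and for Six2, and a wide one for Foxn1 and Tbxa2r.

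**Figure D2:**
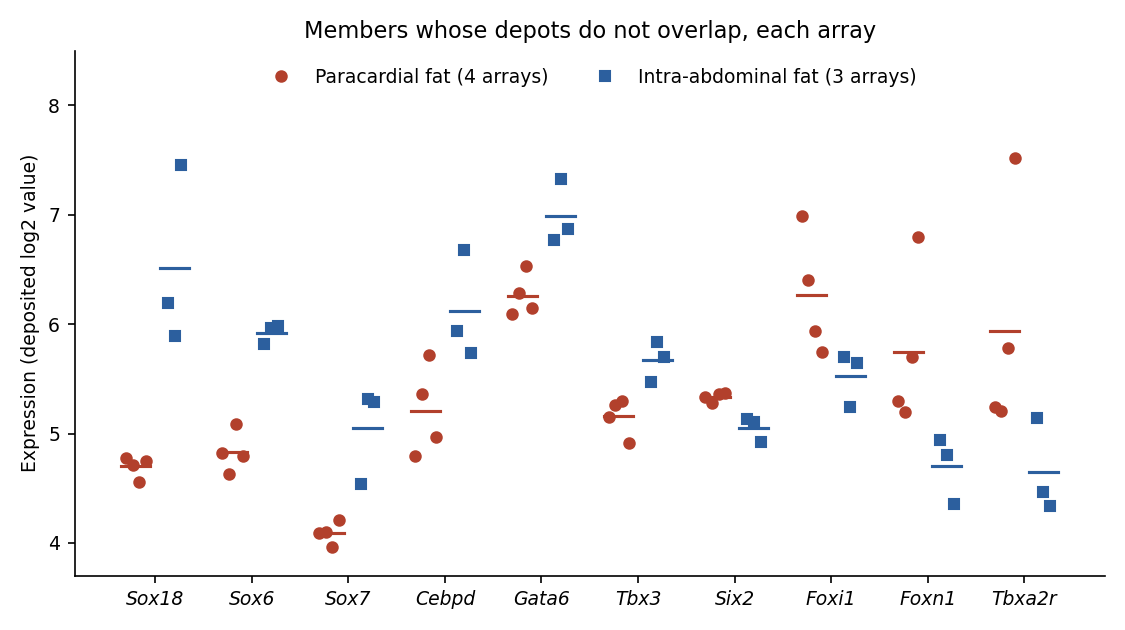
Deposited log2 value of the 10 members whose depots did not overlap (y axis), with 1 point for each paracardial (circles, 4 arrays) and intra-abdominal array (squares, 3 arrays) and lines at the depot means. The 6 genes on the left lie lower and the 4 on the right higher in paracardial fat, and only Sox18 and Sox6 passed the test.

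The SOX genes held both calls. Sox18, which works with Sox7 and Sox17 in the formation of blood and lymph vessels, had paracardial values of 4.78, 4.71, 4.56 and 4.75 against intra-abdominal values of 6.19, 5.89 and 7.45. The paracardial arrays were nearly equal, and intra-abdominal array 3 was the highest. Sox18 was lower in paracardial fat, with means of 4.70 ± 0.10 (SD, n = 4) and 6.51 ± 0.83 (SD, n = 3) and a difference of -1.81 (95% confidence interval -2.72 to -0.90, adjusted p = 0.034). The lower-ceiling arrays alone gave -1.36 and the higher-ceiling pair -2.71. The call held without intra-abdominal array 3 (adjusted p = 0.013). It ended without any other single array, at 0.090, 0.087, 0.088 and 0.070 without paracardial arrays 1 to 4 and at 0.059 and 0.062 without intra-abdominal arrays 1 and 2. Over all genes, the fits without a single array called 114 to 569 higher and 62 to 274 lower, against 581 and 270 with every array.

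Sox6, a SOXD factor without an activation domain of its own, known for its part in cartilage, muscle and red cell formation, was the other lower gene. Its values were 4.83, 4.63, 5.08 and 4.80 on the paracardial and 5.82, 5.97 and 5.98 on the intra-abdominal arrays. Both depots were tight, with means of 4.83 ± 0.19 (SD, n = 4) and 5.92 ± 0.09 (SD, n = 3), and the gap between them exceeded either spread. The 5th percentile of all genes was 4.42 to 4.48 on paracardial arrays 1 to 3 and 4.01 on array 4. Signal over background is unknown, so a small spread at such low values does not show precision. The difference was -1.09 (95% confidence interval -1.52 to -0.66, adjusted p = 0.019), with -1.04 from the lower-ceiling arrays and -1.19 from the higher-ceiling pair. The call ended without paracardial array 1 (adjusted p = 0.064) or 2 (0.054) or intra-abdominal array 2 (0.083), and held in the other 4 fits that left out 1 array. The fits that ended it were, in this order, fits with 134 higher and 62 lower genes, 255 and 83, and 114 and 71. With every array the counts over all genes were 581 and 270. Leaving out both paracardial arrays with little adipocyte signal, 1 and 2, ended both calls, at -1.86 (adjusted p = 0.182) for Sox18 and -0.98 (0.135) for Sox6. That fit left 1 of 9294 genes past the threshold, so a call lost in it is not particular to these genes.

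Sox7, the close relative of Sox18, did not pass (difference -0.96 ± 0.24, estimate ± SE, adjusted p = 0.059). Its values were 4.09, 4.10, 3.96 and 4.21 in paracardial and 4.54, 5.32 and 5.29 in intra-abdominal fat, without overlap. It passed in 3 of the 18 alternatives that kept it, with the array set as a block (0.041), without intra-abdominal array 1 (0.030) and with array weights (0.0021). Sox13, the SOXD relative of Sox6 known from cells of the gamma delta T lineage, stayed between 5.22 and 5.67 on all 7 arrays. The depots overlapped for it and it did not pass.

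Endothelial marker means, like Sox18 and Sox7, were lower on every paracardial than on every intra-abdominal array. Within paracardial fat the endothelial mean ran from 5.38 on array 2 to 7.04 on array 4, while Sox18 stayed between 4.56 and 4.78. The 5th percentile of all genes was 4.42 to 4.48 on paracardial arrays 1 to 3 and 4.01 on array 4. On arrays 1 to 3 Sox18 lay little above it and Sox7 below it. On array 4 both lay above it, Sox18 at 4.75 and Sox7 at 4.21. Whether these genes could follow the endothelial mean at such low values cannot be told. Of the 4 markers measured, the adherens junction cadherin Cdh5 (-7.05, adjusted p = 0.012) and the VEGF receptor Kdr (-4.78, 0.019) were lower in paracardial fat. The angiopoietin receptor relative Tie1 (-1.81, 0.074) and the sialomucin Emcn (-2.38, 0.098) did not pass. The call of Cdh5 held whichever array was left out, and that of Kdr in 4 of 7 such fits. The part of endothelial content in the SOX values was not tested. The plot of markers beside members shows intra-abdominal array 3 with the highest endothelial mean, 11.6, and the highest Sox18 value.

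**Figure D3:**
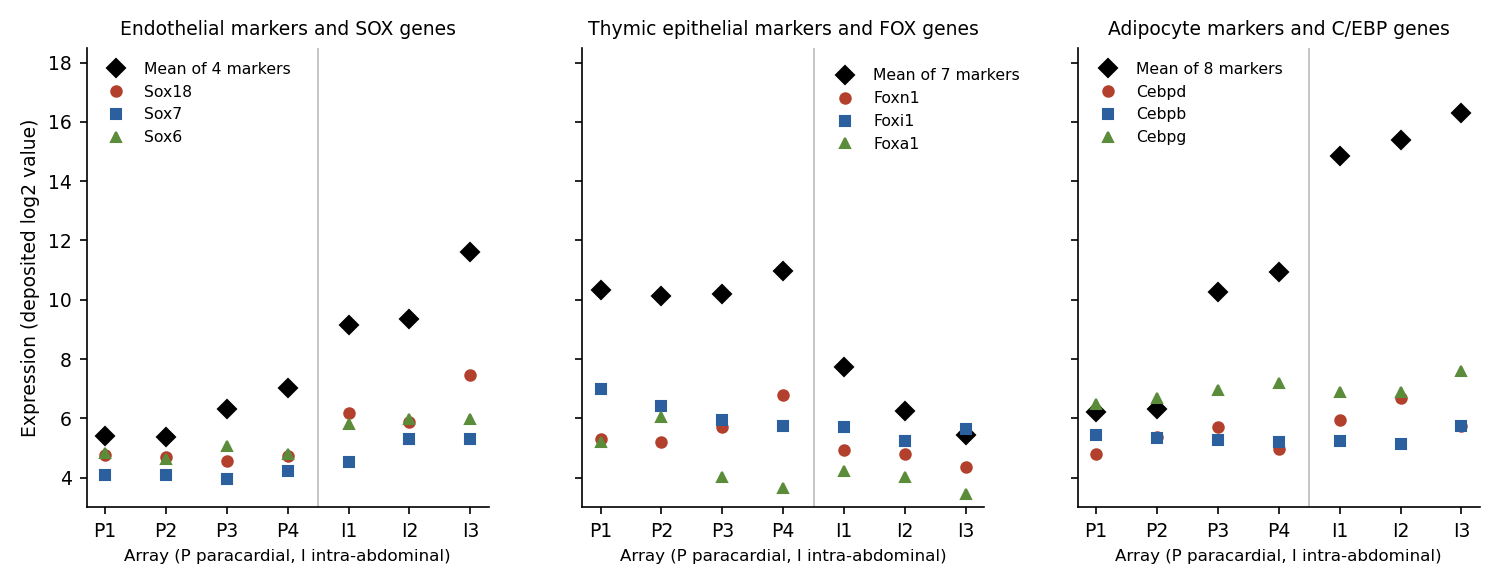
Deposited log2 values per array (y axis; P1 to P4 paracardial, I1 to I3 intra-abdominal) of the mean of measured cell type markers (diamonds) and of selected members. Endothelial means and Sox18 were highest on I3, thymic epithelial means were above 10 on all paracardial arrays, and adipocyte means ran from 6.22 on P1 to 16.3 on I3.

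The C/EBP genes measured, leucine zipper factors of fat cell differentiation, gave no call. Cebpa was not among the genes measured, so nothing is known of it here. Cebpd was 4.80, 5.36, 5.72 and 4.97 in paracardial and 5.94, 6.68 and 5.74 in intra-abdominal fat. The depots were parted only narrowly, by paracardial array 3 and intra-abdominal array 3, and the difference of -0.91 ± 0.33 (SE) gave an adjusted p of 0.149. Cebpb was 5.44, 5.35, 5.27 and 5.19 in paracardial and 5.24, 5.13 and 5.74 in intra-abdominal fat, with full overlap and a difference of -0.06 ± 0.21 (SE, adjusted p = 0.902). Its 95% confidence interval of -0.55 to 0.44 bounds the difference of the deposited values only, as whether Cebpb read above background is unknown. Cebpg, a C/EBP protein that lacks an activation domain and pairs with the others, lay between 6.49 and 7.19 in paracardial and between 6.88 and 7.58 in intra-abdominal fat.

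Regulators of fat cell formation outside the families were counted from a list. Of 16 listed, 5 were measured, of which 3 were lower in paracardial fat, none was higher and 2 did not pass, with a median difference of -1.19 against 0.13 over all genes. Pparg, the nuclear receptor that the early C/EBPs induce, was 6.14, 6.51, 7.91 and 8.07 in paracardial and 10.6, 12.3 and 13.4 in intra-abdominal fat. It differed by -4.98 ± 0.79 (SE, adjusted p = 0.018), against -0.91 for Cebpd. The Krüppel-like factor Klf9 (-2.53, 0.040) and the carbohydrate response factor Mlxipl (-1.19, 0.024) were the other lower genes. The Krüppel-like factors Klf4 (-0.50, 0.302) and Klf15 (-0.20, 0.583) did not pass. The adipocyte marker means given above ran the same way as Pparg, and their part in its value was not tested. The call of Pparg ended without paracardial array 1 (0.056) or 2 (0.052) or intra-abdominal array 2 (0.076). That of Mlxipl ended without paracardial array 1 (0.076) or 2 (0.068) or intra-abdominal array 1 (0.062) or 2 (0.104), and that of Klf9 without each single array (0.056 to 0.110). Without paracardial arrays 1 and 2 together, Pparg was at -4.15 (0.124), Klf9 at -1.97 (0.218) and Mlxipl at -0.998 (0.159), and the lower-ceiling arrays alone gave 0.090 for Klf9. The fit without paracardial arrays 1 and 2 left 1 of 9294 genes past the threshold.

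Among the forkhead genes, Foxn1 was the one with the largest difference, and none of the 8 passed by limma (1, Foxn1, at an unadjusted p under 0.05). FOXN1 switches on the genes by which thymic epithelium attracts and selects T cell precursors. Its paracardial values were 5.30, 5.20, 5.70 and 6.80, and its intra-abdominal values 4.94, 4.81 and 4.36. Paracardial array 4 stood well above the rest, while the other paracardial arrays lay just above the intra-abdominal ones. The difference was 1.05 ± 0.42 (SE, 95% confidence interval 0.03 to 2.06, adjusted p = 0.190), with 0.52 from the lower-ceiling arrays and 2.44 from the higher-ceiling pair. Without paracardial array 4 it was 0.70 (adjusted p = 0.155). Foxn1 passed in none of the 19 alternatives that kept it.

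A list of genes taken to depend on FOXN1 in thymic epithelium was set beside it, and that dependence was not tested here. Of 12 listed, 7 were measured, with 2 higher in paracardial fat, none lower and 5 that did not pass, and a median difference of 1.33. Psmb11, the proteasome subunit of cortical thymic epithelium, was 10.9, 10.1, 11.6 and 14.4 in paracardial and 8.19, 6.12 and 5.79 in intra-abdominal fat (5.04, adjusted p = 0.040). The endocytic receptor Ly75, also made by dendritic cells, was 10.1, 9.80, 11.4 and 11.4 against 8.20, 6.11 and 5.34 (4.12, 0.024). The lower-ceiling arrays gave 3.698 for Psmb11 and 3.27 for Ly75, and the higher-ceiling pair 8.61 and 6.05. For both, paracardial array 4 was the highest and intra-abdominal array 3 the lowest, the order that Foxn1 showed as well. These arrays are the higher-ceiling pair, whose values spread wider at both ends. The part of that wider scale in the shared order was not tested. The genes that did not pass were Cd83 (1.63), Epcam (1.33), Ctsl (0.92), Cxcl12 (0.48) and the Notch ligand Dll4, which vessels also make (-0.90, 0.311). The call of Psmb11 ended without paracardial arrays 1 to 3 (0.085, 0.057 and 0.091) or intra-abdominal array 2 (0.148) or 3 (0.0996), and that of Ly75 without any paracardial array (0.065, 0.052, 0.065 and 0.059) or intra-abdominal array 2 (0.104). Both calls also ended on the lower-ceiling arrays alone (0.065 and 0.088). Without paracardial arrays 1 and 2 together the differences were 6.29 (0.111) and 4.82 (0.113), in a fit that left 1 of 9294 genes past the threshold. Psmb11 and Ly75 also stand in the list of thymic epithelial markers, whose part in the Foxn1 values was not tested.

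Other forkhead genes were high on different arrays. Foxi1, a regulator of acid-secreting ionocytes, was 6.99, 6.40, 5.93 and 5.74 in paracardial and 5.70, 5.24 and 5.64 in intra-abdominal fat. Arrays 1 and 2 were the high paracardial arrays here, and the gap of the lowest to intra-abdominal array 1 was small, with a difference of 0.74 ± 0.34 (SE, adjusted p = 0.244). The lower-ceiling arrays gave 0.97 and the higher-ceiling pair 0.10. Foxa1, a pioneer factor of endodermal and hormone-responsive epithelium, was 5.19 and 6.05 on paracardial arrays 1 and 2. On paracardial arrays 3 and 4 it was 4.04 and 3.64, within the range of 3.45 to 4.21 in intra-abdominal fat. Its difference of 0.84 ± 0.60 (SE, adjusted p = 0.470) turned to -0.05 without those first 2 arrays and was 0.40 without array 2 alone. The lower-ceiling arrays gave 0.98 and the higher-ceiling pair 0.19. Foxd2, a forkhead gene of mesenchyme, was likewise highest on paracardial arrays 1 and 2 (5.98 and 5.56), with 5.04 and 4.92 on arrays 3 and 4 and 4.78, 4.82 and 5.02 in intra-abdominal fat (0.50 ± 0.30, SE, 0.370). Its difference was 0.72 from the lower-ceiling arrays and -0.10 from the higher-ceiling pair, 0.30 without paracardial array 1 and 0.11 without arrays 1 and 2.

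The paracardial arrays on which Foxi1, Foxa1 and Foxd2 were high were those with the lowest adipocyte means, 6.22 and 6.31, and not the array on which Foxn1 was high. The part of tissue content in these values was not tested. Foxa2 and Foxa3, the other FOXA genes, and Foxs1, a gene of perivascular cells, lay between 4.36 and 5.22 on every array. Foxc1, which acts in eye, heart and vessel development, lay between 5.33 and 6.08. None of these 4 genes passed and their depots overlapped.

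The GATA, T-box, sine oculis and Iroquois genes pattern mesoderm and endoderm, and none passed. Gata6, needed in heart and endoderm and expressed by large peritoneal macrophages, was 6.09, 6.28, 6.53 and 6.14 in paracardial and 6.77, 7.33 and 6.87 in intra-abdominal fat. The depots were parted, and the difference of -0.73 ± 0.22 (SE) had a 95% confidence interval of -1.25 to -0.21 and an adjusted p of 0.093. Both array sets gave a like value, -0.75 (lower-ceiling) and -0.73 (higher-ceiling). Of the macrophage markers 5 of 8 were measured, none passed, and their means were 6.59 to 9.35 in paracardial and 8.15 to 11.2 in intra-abdominal fat. Their part in the Gata6 values was not tested.

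Tbx3, a repressor in limb, breast and heart development, was 5.15, 5.26, 5.30 and 4.91 in paracardial and 5.47, 5.84 and 5.70 in intra-abdominal fat. The depots did not overlap and the difference of -0.51 ± 0.19 (SE) gave an adjusted p of 0.156. Its close paralog Tbx2 had 5.43, 5.55, 5.76 and 5.17 in paracardial fat and the same value, 5.58, on all 3 intra-abdominal arrays. Tbx2 therefore lay on both sides of the intra-abdominal value, whereas Tbx3 lay on 1 side of it. The difference between these paralogs was not tested.

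Six2 was 5.33, 5.28, 5.37 and 5.37 in paracardial and 5.14, 5.10 and 4.92 in intra-abdominal fat. It had the tightest paracardial group of the 10 members without overlap, yet its difference of 0.28 ± 0.16 (SE) did not pass (adjusted p = 0.347). Six4, a factor of muscle and sensory precursors, was 5.35, 4.97, 5.40 and 4.68 against 4.92, 4.95 and 4.23 (0.40, 0.467), with 0.16 without intra-abdominal array 3. Six5 lay between 5.07 and 5.66 on all arrays. Irx3, studied in heart conduction and in fat cell energy use, was 6.03, 5.77, 5.74 and 5.29 in paracardial and 5.77, 5.64 and 5.85 in intra-abdominal fat, with a difference of -0.05 ± 0.22 (SE, 0.922). Of 14 cardiac and mesodermal regulators outside the families only Srf, the serum response factor of muscle genes, was measured, and it did not pass (0.21, 0.787, and -0.0998 without paracardial array 4).

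Members known from T cells did not pass. Gata3, Foxp3 and Ikzf1 were not among the genes measured, so nothing is known of them here. Tbx21 lay between 4.70 and 4.87 in paracardial and between 4.58 and 4.81 in intra-abdominal fat, at the same 4.81 on 3 arrays. Ikzf5, a zinc finger factor of the Ikaros family, was 7.85, 7.995, 7.92 and 9.43 in paracardial and 7.58, 7.25 and 7.85 in intra-abdominal fat. Paracardial array 4 stood apart from the other 3, and the difference of 0.74 ± 0.43 (SE, adjusted p = 0.367) was 0.36 without it. The lower-ceiling arrays gave 0.51 and the higher-ceiling pair 1.57. The thymocyte marker mean was highest on the same array, 14.3, and its part in the value was not tested. Tbxa2r, known from platelets, smooth muscle and immature thymocytes, was 5.24, 5.20, 5.78 and 7.52 in paracardial and 5.14, 4.46 and 4.34 in intra-abdominal fat. It again had its highest value on paracardial array 4 and its lowest on intra-abdominal array 3, with a difference of 1.29 ± 0.60 (SE, 0.257) that came to 0.61 from the lower-ceiling arrays and 3.18 from the higher-ceiling pair. Without paracardial array 4 the difference was 0.76. The part of the wider scale of the higher-ceiling pair in these values was not tested.

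Of 17 T-lineage transcription factors outside the families 3 were measured, with 1 lower, none higher and 2 that did not pass (median -0.46). The lower gene was Zbtb16, which encodes PLZF, a factor of innate-like T cells that many other tissues also express. It was 5.77, 5.64, 6.54 and 5.40 in paracardial and 9.33, 10.5 and 8.02 in intra-abdominal fat (-3.45, adjusted p = 0.020). Its direction was opposite to that of the thymocyte markers. The call ended without paracardial array 1 (0.066) or 2 (0.060) or intra-abdominal array 1 (0.052) or 2 (0.058), and without paracardial arrays 1 and 2 together (0.153). The last of these fits left 1 of 9294 genes past the threshold. Id2, an inhibitor of E proteins, differed by 0.83 (0.321).

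No RUNX or FOXO gene was among the members, but some of their partners were measured. Of 10 RUNX partners and corepressors 4 were measured, with 1 higher, none lower and 3 that did not pass (median 0.12). The higher gene was Cbfb, the subunit that RUNX proteins need to bind DNA stably. It was 9.30, 8.93, 9.24 and 9.87 in paracardial and 7.67, 7.30 and 7.02 in intra-abdominal fat (2.004 ± 0.29, SE, adjusted p = 0.014). The lower-ceiling arrays gave 1.67 and the higher-ceiling pair 2.85. Its call ended without paracardial array 1 (0.052) or intra-abdominal array 2 (0.061). Of 16 FOXO-dependent genes 6 were measured, with 1 higher, the lymphocyte homing receptor Ccr7 (2.04, 0.048), none lower and 5 that did not pass (median -0.32). The call of Ccr7 held without intra-abdominal array 1 and ended without each other array (0.064 to 0.173), under median centring (0.058), quantile normalization (0.110), cyclic loess (0.118) and trend with robust fitting (0.052), and on the lower-ceiling arrays alone (0.105). Without paracardial arrays 1 and 2 together, Cbfb was at 2.22 (0.097) and Ccr7 at 2.06 (0.218), in a fit that left 1 of 9294 genes past the threshold. No gene of the list of MEIS and PBX relatives was measured.

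The TEAD genes, DNA-binding partners of the Hippo coactivators YAP and TAZ, gave no call. Tead3 was 5.03 on 4 arrays and between 5.01 and 5.13 on all 7. Tead4 was 5.002, 5.20, 4.98 and 4.58 in paracardial and 4.98, 5.01 and 4.98 in intra-abdominal fat (-0.05 ± 0.20, SE, adjusted p = 0.909). Of 12 TEAD coactivators and targets 5 were measured and none passed by limma (median -0.15), with 1 at an unadjusted p under 0.05. The largest was Wwtr1, which encodes TAZ, with 6.12, 5.93, 5.75 and 6.14 in paracardial and 7.12, 8.07 and 10.04 in intra-abdominal fat (-2.42 ± 0.65, SE, 0.067). The depots did not overlap for Wwtr1, and it passed in 8 of 20 alternatives. It was -1.66 from the lower-ceiling arrays and -3.90 from the higher-ceiling pair, and -1.61 without intra-abdominal array 3. The plot of partner genes sets these lists side by side.

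**Figure D4:**
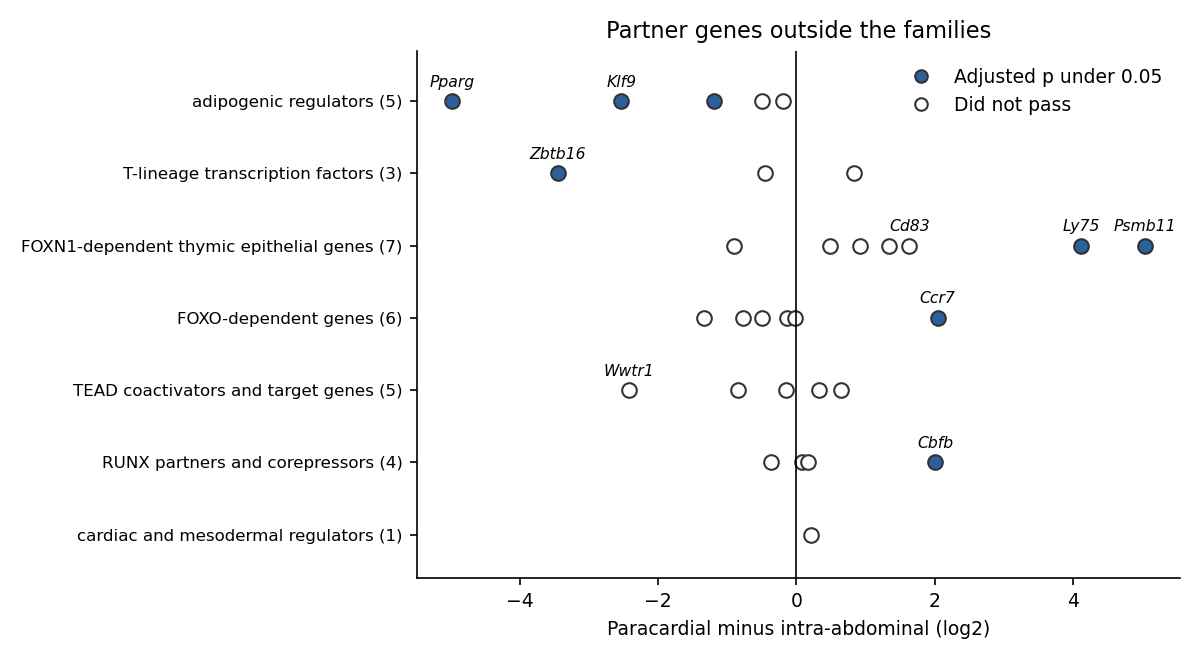
Difference between paracardial and intra-abdominal fat (x axis, deposited log2 scale) for each measured gene of 7 lists of partners and targets outside the families, with the number measured in brackets; filled points passed an adjusted p under 0.05. Called genes reached -4.98 (Pparg) and 5.04 (Psmb11), beyond every member of the families.

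The NKX and DLX genes belong to tissues other than fat and showed no call. Nkx2-1, the factor of thyroid and lung, was 5.80, 5.53, 5.47 and 4.96 in paracardial and 5.47, 5.24 and 4.97 in intra-abdominal fat (0.21 ± 0.26, SE, adjusted p = 0.676). Leaving out single arrays gave 0.089 and 0.37 without paracardial arrays 1 and 4, and 0.33 and 0.082 without intra-abdominal arrays 1 and 3. Nkx6-1 and Nkx6-2, factors of pancreatic beta cells and the ventral neural tube, lay between 4.204 and 5.02 on all arrays. Dlx5, a factor of pharyngeal arches and bone, had 4.94 on 4 of 7 arrays, 5.37 on paracardial array 2 and 4.95 and 4.97 on the other two. Its difference of 0.10 turned to -0.06 under median centring of the arrays.

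Repeated values were common among the members. In 14 of 31 members at least 2 arrays carried the same value to the last deposited digit, against 1769 of all 9294 genes, and in 5 (Tbx2, Tbx21, Dlx5, Tead3 and Tead4) at least 3 arrays did. Such arrays add no spread, as the SD of 0.00 of Tbx2 in intra-abdominal fat shows. The origin of the repeats was not tested. Of the 31 members, 28 had a mean at or below the median of all genes, and 12 of these were in the dimmest 25%. The member values ran from 3.45 to 9.43, and signal over background is unknown, so whether a member near the low end was detected cannot be told from these values. The median range over the 7 arrays was 0.85 for the members and 1.62 for all genes. The 12 members given by range only, Tbx2, Tbx21, Foxa2, Foxa3, Foxc1, Foxs1, Sox13, Nkx6-1, Nkx6-2, Tead3, Six5 and Cebpg, had differences of -0.29 to 0.20 and adjusted p of 0.475 to 0.946.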

How the data were processed

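Total RNA of paracardial fat (4 samples) and intra-abdominal fat (3 samples) was measured on Affymetrix arrays. The authors deposited log2 values, 1 for each probe on each array. The submitters' processing notes name RMA and Affymetrix Expression Console. The sources used here give neither versions nor background correction nor genome build, and scanner files were not used here. Of 11949 probes, 9352 had 1 gene symbol, 522 several and 2075 none. Symbols were updated through the RefSeq table (GRCm38.p6), which matched 5789 probes, and the probe with the highest mean was kept for each gene, leaving 9294 genes. Each member had 1 probe, and no probe was filtered for low signal.

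Differences were fitted in R 4.3.3 with lmFit and eBayes of limma 3.58.1 (two-sided, no covariate, 5 residual and 1.68 prior degrees of freedom), fitted over all genes and adjusted by the Benjamini-Hochberg method. The fit was tested on simulated data. Members, lists and tests were chosen with earlier results of these data known. Every member past the threshold was named, the largest of each family and genes named beforehand, with up to 3 genes of each list of partners. Of the genes named beforehand, Cebpa, Ebf1, Ebf2, Foxp3, Gata2, Gata3, Ikzf1 and Runx1 were not measured. Runx3, Sox4, Tbx5, Tbx15, Tbx20, Nr2f2 and Nkx2-5 were not measured either. Foxa1, Foxd2, Foxi1, Sox7, Tbx3, Tbx2 and Six2 and the marker genes Cdh5, Kdr, Tie1 and Emcn were named after their values were seen, as were Dll4, Cd83, Epcam, Ctsl, Cxcl12, Klf4, Klf15 and Id2. Alternatives were another normalization or centring, filters, other variance models, array weights, blocks and left-out arrays. The labels name no pairs, so numbers were not taken as pairs. Deviations of same-numbered arrays from their depot means gave Pearson's r of 0.048, 0.047 and -0.5 for numbers 1 to 3. With so few arrays this can neither show nor exclude a shared animal. Precision is limited by how few arrays there are. Tables and figures were made with Python 3.11.15, pandas 2.3.3 and matplotlib 3.10.9.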

Additional observations from a re-analysis of the deposited data

Results flagged for a closer look

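Of 41 genes checked, the members and the named partners, 3 members had 1 paracardial array far from the other 3, and chance alone gives about 1 in 20 such genes. Ikzf5 was 9.43 on paracardial array 4 against 7.85 to 7.995 on the others. Six5 was 5.07 on paracardial array 4 against 5.42 to 5.46 on the others. Dlx5 was 5.37 on paracardial array 2 against 4.94 to 4.95 on the others. For Dlx5 and Six5 the distance is inflated by a value repeated among the other paracardial arrays. The intra-abdominal group of 3 was too small for this check.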

How the results depend on the processing

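The count of members past the threshold (2, both lower) was 0 with the replicate block, 0 without paracardial arrays 1 and 2, and 0 of the 3 members left when the dimmest 50% of genes were dropped. The fit without paracardial arrays 1 and 2 left 1 of 9294 genes past the threshold. The member count was 0 to 2 when single arrays were left out, 0 each without paracardial array 1 or 2 or intra-abdominal array 2. Calls over all genes also fell, from 581 higher and 270 lower to 134 and 62 without paracardial array 1. They fell to 255 and 83 without paracardial array 2 and to 114 and 71 without intra-abdominal array 2. A call lost in these fits is therefore not particular to the gene named. With array weights, whose estimation stopped before its convergence tolerance, the member count was 10 (4 higher and 6 lower). The same fit called 2235 higher and 1379 lower of all 9294 genes. No paracardial array correlated best with the intra-abdominal array of its own number. The replicate block left no gene of 9294 past the threshold. Whether same-numbered samples share an animal is unknown, and that correlation can neither show nor exclude it. The labels name no pairs, so numbers were not taken as pairs. Were they pairs, no call would hold at the threshold in that fit. The other alternatives (quantile normalization again, median centring, cyclic loess, the 25% filter, trend with robust fitting, probe means, the array set as a block, the lower-ceiling arrays alone and no genes at the ceiling) kept the count within 1.5 times. With the array set as a block it was 3, beside 1081 higher and 573 lower of all 9294 genes. Of 29 genes in 557 fits under the 20 alternatives, 22 never changed sign, among them Sox18, Sox6 and the 8 called partner genes. The depots did not overlap for Sox18, Sox6 and those 8 genes, so leaving out arrays could not turn their signs. The filters, trend with robust fitting and leaving out genes at the ceiling do not change a difference. A kept sign under these settings therefore says nothing of how stable it is. Signs turned for 7 genes that never passed in the reported fit. Cebpb was 0.23 with array weights, 0.17 on the lower-ceiling arrays alone and -0.18 to 0.13 with single arrays left out. Irx3 was 0.23, 0.14 and -0.156 to 0.088 under the same, and 0.088 with the replicate block. Tead4 was 0.041, 0.065 and -0.14 to 0.069, and 0.069 with the replicate block. Dlx5 was -0.058 with median centring, -0.0062 without paracardial arrays 1 and 2 and -0.0069 to 0.13 with single arrays left out. Without paracardial arrays 1 and 2, Foxa1 was -0.051 and Nkx2-1 -0.016. Srf was -0.0998 with the replicate block and -0.0998 to 0.38 with single arrays left out. The causes were not tested. The median difference of all genes was 0.13 as deposited and -0.02 after median centring, and genes past the threshold split into 581 higher and 270 lower as deposited, 603 and 387 centred, 436 and 474 after quantile normalization and 453 and 571 after cyclic loess. Another background correction could not be run without scanner files, so signal over background, which limits every dim member, is unknown.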
